A study of Rattus norvegicus with 24 samples.

Results

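The genes of DNA replication and mitosis described here are 49 listed genes, of which 46 could be read from the array, among 14217 genes in all. Cdc6, Gins2 and Rrm2 had no probe set that names them alone and carry no value below. A member is a listed gene found in the platform annotation, read from the probe set that was brightest on average where a gene had several. Of the 46, 26 act in replication licensing and S phase, 19 act in G2 and mitosis, and Ccnd1, a cyclin of G1, is in neither class.

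The arrays came from primary rat hepatocytes in sandwich culture, which keeps the cells between layers of matrix. Treated cells received a piperazine designer drug for 24 h, with 3 arrays each for BZP at 625 µM, TFMPP at 35 µM, MeOPP at 522 µM and MDBP at 467 µM, each concentration being the drug's EC20, the one with an effect of 20 percent. Each treated array had its own control array from cells with 0.1 percent DMSO, so 12 treated arrays faced 12 DMSO arrays in 12 pairs. BZP (benzylpiperazine) and MDBP (its methylenedioxy relative) are benzylpiperazines, and TFMPP and MeOPP are phenylpiperazines with a trifluoromethyl or a methoxy group. The labels name no strain, age, animal or culture of origin, so the p-values reflect only how these arrays vary, which may be technical. Values are log2 intensities after RMA, and a change is treated minus paired DMSO on that scale. In bulk RNA, fewer cells of a type and less RNA per cell cannot be told apart.

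Replication is prepared in G1, when the origin recognition complex, Cdc6 and Cdt1 load the ring of Mcm2 to Mcm7 onto DNA. In S phase that ring unwinds the double strand together with Cdc45 and the GINS complex, and polymerases, the clamp Pcna and its loader copy it. Genes of this stage are known targets of E2F transcription factors, while genes of G2 and mitosis are known to be controlled later in the cycle through CHR elements and CCAAT boxes. Adult hepatocytes in the liver are mostly quiescent but can re-enter the cycle after tissue loss.

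Averaged over the 4 drugs, 18 of 46 members rose, 2 fell and 26 were not called (limma, Benjamini-Hochberg adjusted p under 0.05, n = 12 pairs). Among all 14217 genes, 18.0 percent rose and 11.9 percent fell in the same comparison. Of the licensing and S phase members 13 of 26 rose and 2 fell, with a median change of 0.16, and of the G2 and mitosis members 5 of 19 rose and 0 fell, with a median of 0.09. The median change of all genes was 0.01. At an unadjusted limma p under 0.05, 14 of 26 licensing and S phase members were higher and 2 lower, and 6 of 19 G2 and mitosis members were higher and 0 lower, beside 24.5 percent of all genes higher and 16.3 percent lower. Within the helicase ring 5 of Mcm2 to Mcm7 rose, with a median of 0.42, while 14 of the 19 G2 and mitosis members, Cdk1, Top2a and Mki67 included, were not called. Without the pair terms 7 members rose and 0 fell, and 4.96 percent of all genes rose. Those 7 were Mcm2, Mcm3, Mcm4, Mcm6, Mcm7, Bub1 and Mad2l1, and the other 13 calls were lost. With 1 value per inferred preparation (a cluster of DMSO arrays, described below) 14 of the 20 calls were kept, and those of Ccnb1, Ccne1, Kif20a, Mcm10, Pold1 and Rfc4 were lost. In that setting 10.8 percent of all genes rose.

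**Figure D1:**
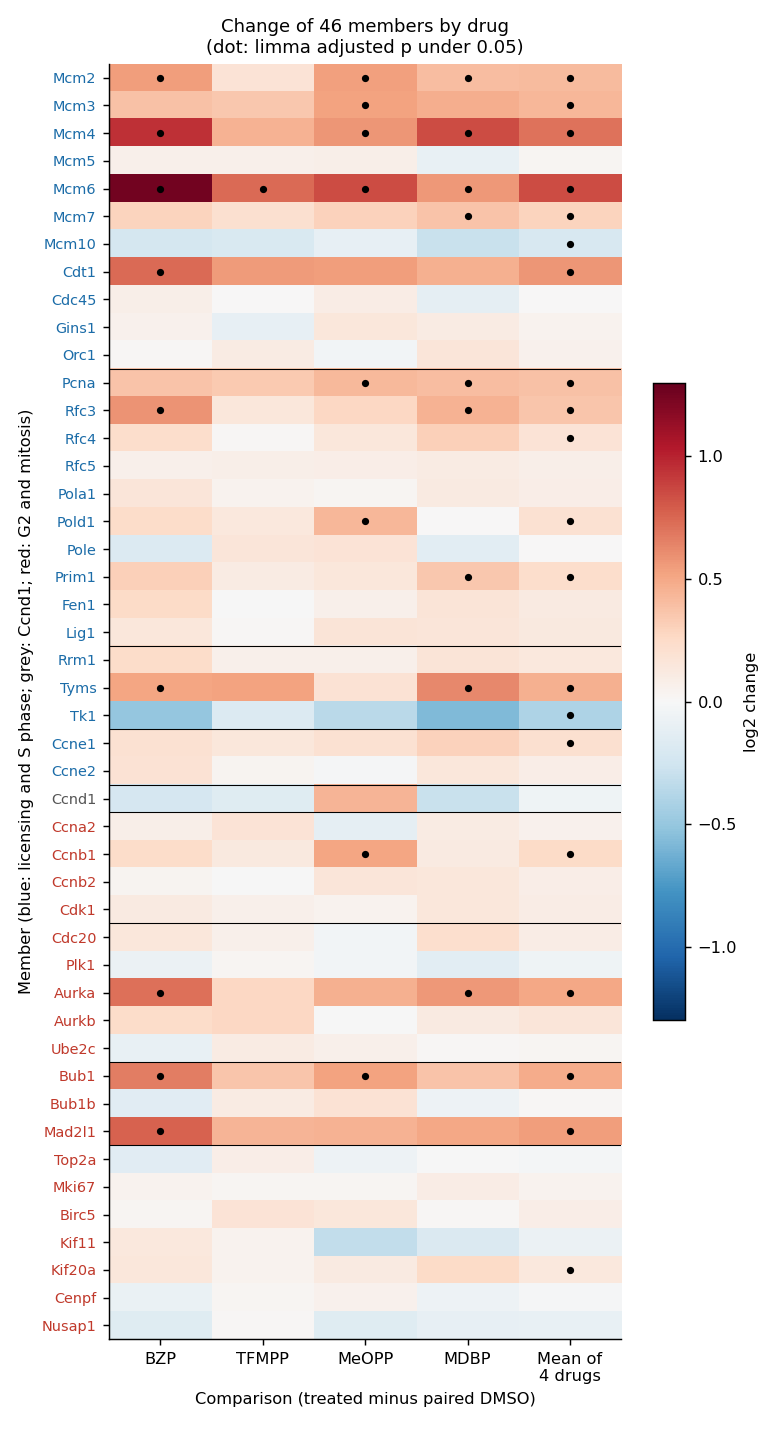
Change of the 46 members (rows, ordered by role, names in blue for licensing and S phase, grey for Ccnd1 and red for G2 and mitosis) with each drug and in the mean of the 4 drugs (columns). Colour gives the log2 change, treated minus paired DMSO, and a dot marks a limma adjusted p under 0.05. Mcm6 carries a dot in every column, and most G2 and mitosis rows carry none.

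The upstream sequence of the members differed by class in the letters it held. Promoters were taken from RefSeq on the GRCr8 assembly, 250 bases before to 50 after the gene's start, and 23 of 26 licensing and S phase members and 16 of 19 G2 and mitosis members had an entry. Mcm4, Orc1, Ccne2, Ccnd1, Ccna2, Aurkb and Ube2c had no entry. These sets of letters were searched on both strands, where matches of different sets may overlap: E2F as TTTCCCGC, TTTGGCGC, TTTGCCGC or TTTCGCGC, an E2F core as GGCGGGA, CHR as TTTGAA or TTCGAA, and the CCAAT box as CCAAT.

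The promoters below are those of the licensing and S phase members and of the mitotic members with the largest called changes, with searched letters in capitals and each sequence running 5′ to 3′ on the gene's strand. The 3 licensing and S phase promoters lie at chr13:42404303-42404602 on the minus strand (Mcm6), chr19:67528999-67529298 on the plus strand (Cdt1) and chr9:120776034-120776333 on the minus strand (Tyms).
Mcm6: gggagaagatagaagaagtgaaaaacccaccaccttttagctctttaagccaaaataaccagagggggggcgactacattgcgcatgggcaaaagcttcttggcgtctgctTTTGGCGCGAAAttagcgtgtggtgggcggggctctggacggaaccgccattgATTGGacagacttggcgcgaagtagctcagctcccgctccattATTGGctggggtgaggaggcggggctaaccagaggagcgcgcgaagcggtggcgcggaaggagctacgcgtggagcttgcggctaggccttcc
Cdt1: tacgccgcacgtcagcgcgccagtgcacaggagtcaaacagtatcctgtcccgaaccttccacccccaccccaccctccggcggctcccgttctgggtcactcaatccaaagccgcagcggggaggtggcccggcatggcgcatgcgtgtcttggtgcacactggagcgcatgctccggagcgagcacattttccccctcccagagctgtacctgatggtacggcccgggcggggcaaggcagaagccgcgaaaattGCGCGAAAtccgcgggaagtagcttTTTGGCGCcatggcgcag
Tyms: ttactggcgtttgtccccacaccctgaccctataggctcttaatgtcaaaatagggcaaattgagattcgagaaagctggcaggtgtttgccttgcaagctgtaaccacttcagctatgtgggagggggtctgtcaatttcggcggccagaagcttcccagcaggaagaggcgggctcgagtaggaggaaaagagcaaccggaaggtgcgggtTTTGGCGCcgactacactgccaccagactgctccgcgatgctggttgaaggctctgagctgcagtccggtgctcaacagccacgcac
All of them held E2F letters. In Mcm6 a pair of overlapping matches began at -139 and -135 from the start, and CCAAT matches began at -86 and -43. In Cdt1 the E2F matches began at 8 and 33 after the start, and in Tyms at -37.

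The 3 mitotic promoters lie at chr4:97236259-97236558 on the plus strand (Mad2l1), chr3:181560720-181561019 on the minus strand (Aurka) and chr3:135504872-135505171 on the minus strand (Bub1).
Mad2l1: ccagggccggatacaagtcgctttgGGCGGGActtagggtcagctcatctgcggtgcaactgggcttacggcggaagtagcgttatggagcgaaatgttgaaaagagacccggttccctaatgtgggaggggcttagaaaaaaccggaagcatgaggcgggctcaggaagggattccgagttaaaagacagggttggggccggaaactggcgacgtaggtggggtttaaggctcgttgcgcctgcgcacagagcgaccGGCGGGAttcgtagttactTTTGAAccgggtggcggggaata
Aurka: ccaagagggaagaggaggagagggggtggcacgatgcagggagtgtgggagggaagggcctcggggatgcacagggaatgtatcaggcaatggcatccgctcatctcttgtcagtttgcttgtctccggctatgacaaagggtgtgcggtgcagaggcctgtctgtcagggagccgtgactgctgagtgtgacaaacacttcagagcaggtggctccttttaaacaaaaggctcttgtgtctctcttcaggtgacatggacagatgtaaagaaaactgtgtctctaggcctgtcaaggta
Bub1: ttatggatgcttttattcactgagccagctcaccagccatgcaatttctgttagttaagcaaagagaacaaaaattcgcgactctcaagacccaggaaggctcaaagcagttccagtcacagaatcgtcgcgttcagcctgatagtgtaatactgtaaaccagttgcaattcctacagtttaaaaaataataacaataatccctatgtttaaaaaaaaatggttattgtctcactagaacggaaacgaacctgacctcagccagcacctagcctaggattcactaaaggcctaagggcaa
Mad2l1 held the E2F core at -225 and 9 and a CHR match at 28. Aurka and Bub1 held none of the letters in these windows. In Aurka the bases cttcag come just before the annotated start and an ATG follows soon after it. Its window may thus lie at a coding exon and miss the promoter in use, so its lack of letters says nothing of that promoter. Beside them stand the promoters of Ccnb2 (chr8:79981609-79981908 on the minus strand) and Cdk1 (chr20:19265043-19265342 on the plus strand), mitotic members that were not called, chosen for display after their values were seen.
Ccnb2: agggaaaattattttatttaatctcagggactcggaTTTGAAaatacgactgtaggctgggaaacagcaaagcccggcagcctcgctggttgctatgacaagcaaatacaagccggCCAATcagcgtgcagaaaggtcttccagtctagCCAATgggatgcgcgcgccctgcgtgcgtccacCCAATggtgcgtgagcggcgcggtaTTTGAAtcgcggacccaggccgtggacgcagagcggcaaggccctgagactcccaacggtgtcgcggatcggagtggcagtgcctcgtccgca
Cdk1: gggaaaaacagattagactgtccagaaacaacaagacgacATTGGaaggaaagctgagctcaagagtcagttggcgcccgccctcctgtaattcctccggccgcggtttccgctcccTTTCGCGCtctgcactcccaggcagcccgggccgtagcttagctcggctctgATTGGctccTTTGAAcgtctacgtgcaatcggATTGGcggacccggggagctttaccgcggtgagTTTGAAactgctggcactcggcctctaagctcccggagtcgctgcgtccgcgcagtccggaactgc
Both held CHR letters and CCAAT boxes, with CHR matches at -214 and -43 in Ccnb2 and at -72 and -16 in Cdk1. Cdk1 also held E2F letters at -133.

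E2F letters lay in 12 of 23 licensing and S phase promoters (52.2 percent), in 1 of 16 G2 and mitosis promoters (6.25 percent) and in 2.25 percent of all 27457 promoters of the table. E2F or E2F core letters lay in 78.3 percent, 37.5 percent and 12.6 percent of the same sets. CHR letters ran the other way, in 4 of 23 licensing and S phase promoters (17.4 percent), 11 of 16 G2 and mitosis promoters (68.8 percent) and 19.5 percent of all. CCAAT boxes lay in 60.9, 75.0 and 37.7 percent. Among the 11733 genes on the array with an entry in the table, E2F letters lay in 3.64 percent, E2F or E2F core letters in 21.6 percent, CHR letters in 14.0 percent and CCAAT boxes in 37.3 percent. Of the licensing and S phase promoters, E2F letters lay in 7 of 12 that rose, in 0 of 2 that fell (Mcm10 and Tk1) and in 5 of 9 that were not called. Of the G2 and mitosis promoters, CHR letters together with a CCAAT box lay in 0 of 5 that rose and in 9 of 11 that were not called. They lay together in 7.83 percent of all promoters and in 5.75 percent of those of genes on the array. The 5 include the Aurka window, which may miss its promoter. Whether the other windows, that of Bub1 included, hold the promoter in use was not checked. The split of the G2 and mitosis promoters was seen after the changes were known, and a match of letters is no evidence that a factor binds.

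Of the 11 members of licensing and the helicase, 6 rose, 1 fell and 4 were not called, with a median change of 0.29. Mcm6, a subunit of the ring, rose most of all members. Mcm6 stood at 6.47, 5.87 and 5.83 in the BZP arrays, against 5.13, 4.65 and 4.66 in their DMSO arrays, and at 5.43, 5.38 and 5.73 in the TFMPP arrays, against 4.83, 4.37 and 5.12 in their DMSO arrays. Mcm6 stood at 6.26, 5.72 and 6.00 in the MeOPP arrays, against 5.10, 5.09 and 5.24 in their DMSO arrays, and at 5.51, 5.32 and 5.72 in the MDBP arrays, against 4.93, 4.94 and 5.01 in their DMSO arrays. Every one of the 12 treated arrays, from 5.32 to 6.47, lay above every one of the 12 DMSO arrays, from 4.37 to 5.24. Mcm6 was the only member whose 12 treated and 12 DMSO arrays did not overlap, which 0.415 percent of all genes showed in either direction. The mean change was 0.85 ± 0.06 (SE, n = 12 pairs; 1.80-fold; limma adjusted p = 3.29e-08).

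Mcm4, another subunit of the ring, rose by 0.71 ± 0.07 (1.63-fold; limma adjusted p = 8.61e-07). Mcm4 stood at 6.10, 5.67 and 5.91 in the BZP arrays, against 5.51, 4.82 and 4.51 in their DMSO arrays, and at 5.74, 5.29 and 6.00 in the TFMPP arrays, against 5.41, 4.79 and 5.48 in their DMSO arrays. Mcm4 stood at 6.17, 6.03 and 6.06 in the MeOPP arrays, against 5.58, 5.27 and 5.69 in their DMSO arrays, and at 6.06, 5.74 and 6.00 in the MDBP arrays, against 5.38, 4.89 and 4.97 in their DMSO arrays. It was higher in 12 of 12 pairs, and the widest gap was that of the third BZP pair, whose DMSO array was the lowest of all. Cdt1, which brings the ring to the origin, rose by 0.57 ± 0.08 (1.49-fold; limma adjusted p = 6.09e-05). Cdt1 stood at 5.78, 4.48 and 4.27 in the BZP arrays, against 4.68, 3.87 and 3.76 in their DMSO arrays, and at 5.40, 4.01 and 5.52 in the TFMPP arrays, against 4.57, 3.92 and 4.78 in their DMSO arrays. Cdt1 stood at 5.90, 4.41 and 5.76 in the MeOPP arrays, against 4.94, 4.28 and 5.24 in their DMSO arrays, and at 4.96, 4.34 and 4.64 in the MDBP arrays, against 4.64, 3.78 and 4.14 in their DMSO arrays. The arrays of the treated and DMSO groups overlapped widely for Cdt1, since both members of a pair were high or low together, and its call was lost without the pair terms (limma adjusted p = 0.179).

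Mcm3 and Mcm2, further subunits of the ring, moved less. Mcm3 stood at 5.58, 5.51 and 5.63 in the BZP arrays, against 5.35, 5.29 and 4.96 in their DMSO arrays, and at 5.38, 5.15 and 5.70 in the TFMPP arrays, against 4.79, 5.22 and 5.18 in their DMSO arrays. Mcm3 stood at 5.52, 5.36 and 5.71 in the MeOPP arrays, against 5.27, 4.62 and 5.13 in their DMSO arrays, and at 5.70, 5.50 and 5.50 in the MDBP arrays, against 4.89, 5.22 and 5.19 in their DMSO arrays. Mcm3 was higher in 11 of 12 pairs, the second TFMPP pair being the exception, and its mean change was 0.43 ± 0.07 (limma adjusted p = 0.000394). Mcm2 stood at 6.49, 6.34 and 6.40 in the BZP arrays, against 6.16, 5.49 and 5.96 in their DMSO arrays, and at 6.15, 5.82 and 6.41 in the TFMPP arrays, against 6.08, 5.59 and 6.17 in their DMSO arrays. Mcm2 stood at 6.64, 6.12 and 6.39 in the MeOPP arrays, against 6.09, 5.51 and 5.96 in their DMSO arrays, and at 6.33, 6.17 and 6.31 in the MDBP arrays, against 6.06, 5.74 and 5.81 in their DMSO arrays. Mcm2 was higher in 12 of 12 pairs, by 0.41 ± 0.05 (limma adjusted p = 2.25e-05). Its BZP, MeOPP and MDBP arrays all lay above their own DMSO arrays, and its TFMPP arrays overlapped theirs. Mcm3 and Mcm4 separated and overlapped with the same drugs. The share of all genes that separate by drug in this way was not counted.

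Mcm7 rose by 0.29 ± 0.05, from 7.71 to 8.40 in treated arrays, against 7.38 to 8.13 in DMSO arrays. Mcm5 was the one subunit of the ring that was not called, at 0.03 ± 0.05 (95 percent interval -0.07 to 0.14; 4.60 to 4.93 in treated arrays, against 4.54 to 4.89 in DMSO arrays). Of the partners that turn the ring into a working helicase, the members Cdc45, at 0.01 ± 0.05, and Gins1 of the GINS complex, at 0.05 ± 0.06, were not called, while the GINS subunit Gins4, which is no member, rose by 0.48 ± 0.05 (limma adjusted p = 1.41e-06). Orc1 of the origin recognition complex lay at 0.06 ± 0.06 and was not called. It was dim, at 1.91 to 2.46 in DMSO arrays, where the lowest value of any probe set was 1.43. At that level a small change need not mean that the transcript held still. Mcm10, which helps to activate the loaded helicase, fell, with a change of -0.21 ± 0.06 (limma adjusted p = 0.0168; lower in 11 of 12 pairs), and its other probe set lay at -0.10 and was not called (adjusted p = 0.173). The Mcm10 call was also lost when the second TFMPP pair was left out (adjusted p = 0.0508) and with 1 value per preparation (adjusted p = 0.124).

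**Figure D2:**
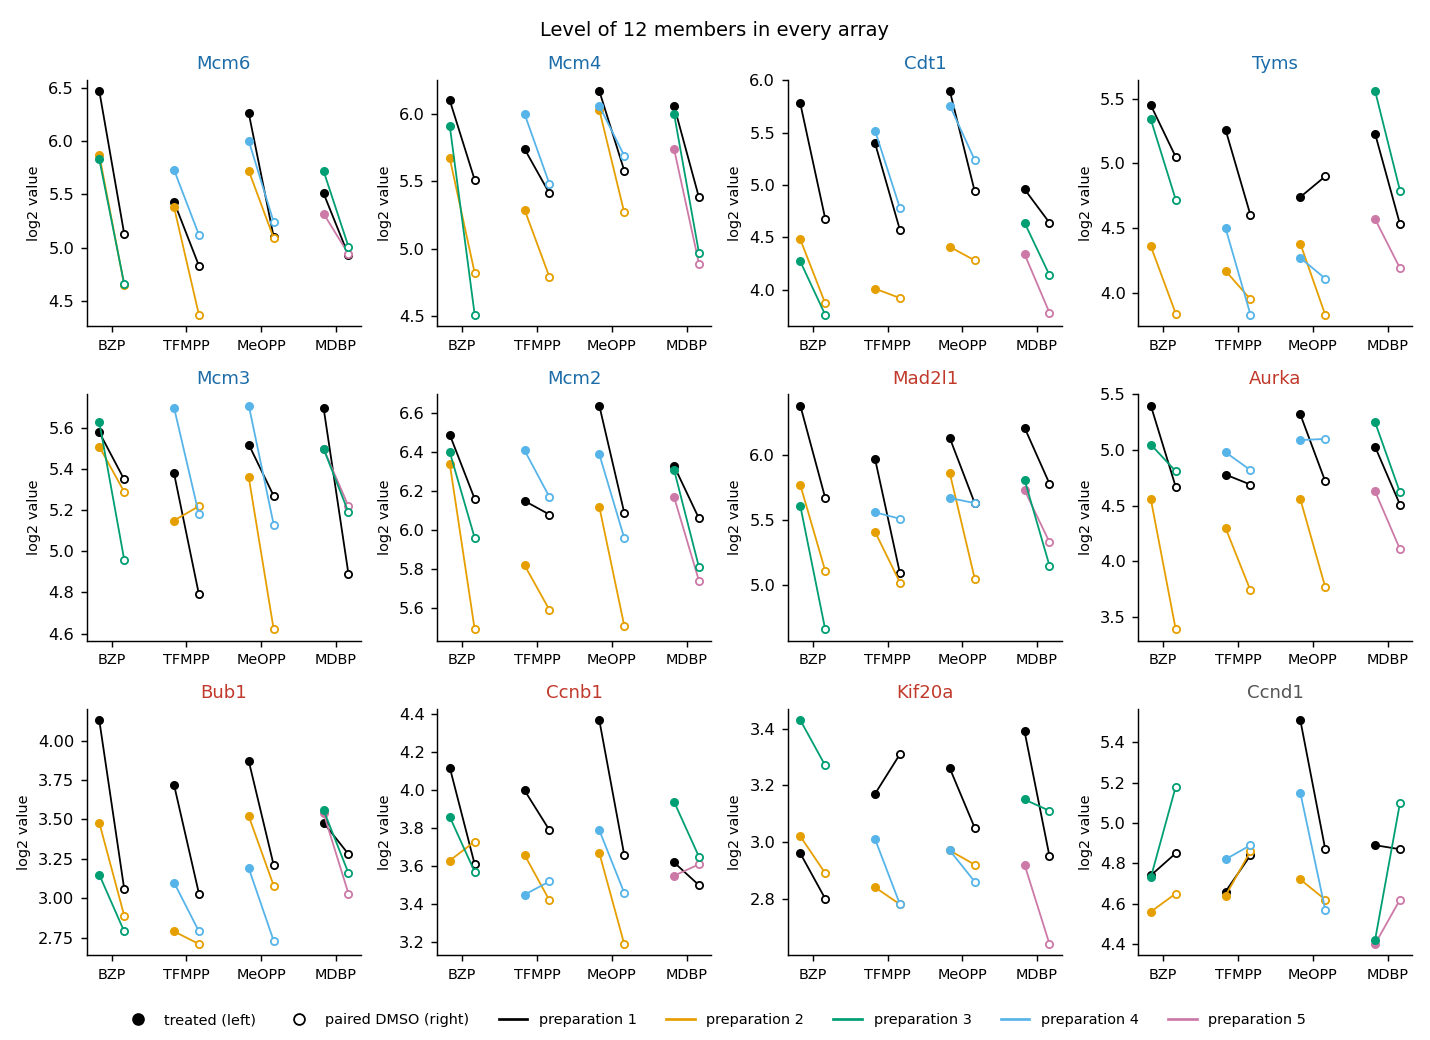
Log2 value in every array for the 6 licensing and S phase members and the 5 G2 and mitosis members with the largest called changes, and for Ccnd1. Within each drug, filled points on the left are treated arrays, open points on the right are their DMSO arrays, lines join pairs, and colour gives the inferred preparation. Lines of Mcm6 fall from left to right in every pair, while those of Ccnd1 run in opposite directions between drugs.

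Of the 10 members of the copying machinery, 5 rose and 0 fell, with a median of 0.15. Pcna, the sliding clamp, rose by 0.38 ± 0.06 (limma adjusted p = 0.000126; higher in 12 of 12 pairs). Pcna stood at 10.79, 10.38 and 10.03 in the BZP arrays, against 10.52, 10.27 and 9.29 in their DMSO arrays, and at 10.93, 10.54 and 10.54 in the TFMPP arrays, against 10.48, 10.25 and 10.26 in their DMSO arrays. Pcna stood at 10.99, 10.66 and 10.68 in the MeOPP arrays, against 10.40, 10.34 and 10.33 in their DMSO arrays, and at 10.75, 10.36 and 10.18 in the MDBP arrays, against 10.51, 9.98 and 9.59 in their DMSO arrays. The DMSO arrays of the third BZP and MDBP pairs were the lowest of the 12, and the third BZP pair had the largest gap. Rfc3, a subunit of the clamp loader, rose by 0.36 ± 0.05 (5.71 to 6.98 in treated arrays, against 5.54 to 6.38 in DMSO arrays; limma adjusted p = 6.15e-05). Prim1, the primase that starts each new strand, rose by 0.23 ± 0.05, and Pold1, the catalytic subunit of polymerase delta, by 0.20 ± 0.05.

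Rfc4, also of the clamp loader, rose by 0.18 ± 0.05 (limma adjusted p = 0.0209), a call that was lost when any one of 4 pairs was left out (the first BZP, the first TFMPP, the second MeOPP or the first MDBP pair). The loader subunit Rfc5 lay at 0.08 ± 0.04, the polymerase alpha subunit Pola1 at 0.09 ± 0.06 and the polymerase epsilon subunit Pole at 0.00 ± 0.07. Fen1, which trims Okazaki fragments, lay at 0.12 ± 0.06, and Lig1, which seals them, at 0.13 ± 0.06. None of these 5 was called, although the other probe set of Lig1 was (0.19 ± 0.06; limma adjusted p = 0.0369).

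The supply of deoxynucleotides gave both directions. Tyms, which makes thymidylate from deoxyuridylate, rose by 0.46 ± 0.06 (1.37-fold; limma adjusted p = 7.27e-05). Tyms stood at 5.45, 4.36 and 5.34 in the BZP arrays, against 5.05, 3.84 and 4.72 in their DMSO arrays, and at 5.26, 4.17 and 4.50 in the TFMPP arrays, against 4.60, 3.95 and 3.83 in their DMSO arrays. Tyms stood at 4.74, 4.38 and 4.27 in the MeOPP arrays, against 4.90, 3.83 and 4.11 in their DMSO arrays, and at 5.23, 4.57 and 5.56 in the MDBP arrays, against 4.53, 4.19 and 4.79 in their DMSO arrays. It was higher in 11 of 12 pairs, the first MeOPP pair being the exception. Tk1, which makes the same nucleotide by salvage of thymidine, fell, and was lower in 12 of 12 pairs. Tk1 stood at 5.69, 5.83 and 6.34 in the BZP arrays, against 5.75, 6.24 and 7.37 in their DMSO arrays, and at 5.77, 5.92 and 6.05 in the TFMPP arrays, against 5.88, 6.24 and 6.15 in their DMSO arrays. Tk1 stood at 5.75, 5.62 and 5.74 in the MeOPP arrays, against 5.80, 6.26 and 6.09 in their DMSO arrays, and at 5.77, 5.81 and 6.17 in the MDBP arrays, against 6.00, 6.27 and 7.19 in their DMSO arrays. The deepest falls were those of the third BZP and MDBP pairs, whose DMSO arrays stood highest, at 7.37 and 7.19. The mean change of Tk1 was -0.40 ± 0.08 (1.32-fold lower; limma adjusted p = 0.00211). Of its other probe sets, one lay at -0.54 ± 0.10 and was called, and one at -0.01 ± 0.07 and was not. Rrm1, the large subunit of ribonucleotide reductase, lay at 0.14 ± 0.05 and was not called (adjusted p = 0.0671).

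Among the cyclins of G1 and the G1 to S transition, Ccne1, which drives entry into S phase with Cdk2, rose by 0.21 ± 0.06 (limma adjusted p = 0.0164; higher in 11 of 12 pairs), and its relative Ccne2 lay at 0.09 ± 0.09. The Ccne1 call was lost with 1 value per preparation (adjusted p = 0.196) and without the third BZP and MDBP pairs together (adjusted p = 0.0609). Ccnd1, the growth factor sensor that pairs with Cdk4 and Cdk6, was not called in the mean, at -0.06 ± 0.07. Ccnd1 stood at 4.74, 4.56 and 4.73 in the BZP arrays, against 4.85, 4.65 and 5.18 in their DMSO arrays, and at 4.66, 4.64 and 4.82 in the TFMPP arrays, against 4.84, 4.86 and 4.89 in their DMSO arrays. Ccnd1 stood at 5.51, 4.72 and 5.15 in the MeOPP arrays, against 4.87, 4.62 and 4.57 in their DMSO arrays, and at 4.89, 4.40 and 4.42 in the MDBP arrays, against 4.87, 4.62 and 5.10 in their DMSO arrays. All 3 MeOPP arrays were higher than their own DMSO arrays, and the arrays of BZP and TFMPP were lower than theirs in every pair. The MeOPP change was 0.44 ± 0.13 (limma adjusted p = 0.0613), against -0.22 with BZP, -0.16 with TFMPP and -0.29 with MDBP. The other probe sets of Ccnd1 lay at -0.08 ± 0.06 and 0.09 ± 0.08 in the mean and were not called. They were not read by drug, so the contrast between drugs rests on a single probe set.

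In G2 and mitosis 5 of 19 members were called higher, while 14 of 19 had a mean change above 0. Mad2l1, the checkpoint protein that delays anaphase until all kinetochores are attached, rose by 0.54 ± 0.07 (1.45-fold; limma adjusted p = 4.88e-05). Mad2l1 stood at 6.38, 5.77 and 5.61 in the BZP arrays, against 5.67, 5.11 and 4.66 in their DMSO arrays, and at 5.97, 5.41 and 5.56 in the TFMPP arrays, against 5.09, 5.02 and 5.51 in their DMSO arrays. Mad2l1 stood at 6.13, 5.86 and 5.67 in the MeOPP arrays, against 5.63, 5.05 and 5.63 in their DMSO arrays, and at 6.21, 5.73 and 5.81 in the MDBP arrays, against 5.78, 5.33 and 5.15 in their DMSO arrays. It was higher in 12 of 12 pairs, though the third TFMPP and MeOPP pairs, of 1 preparation, hardly differed. Both of its other probe sets were also called higher, at 0.32 and 0.40.

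Bub1, the checkpoint kinase at the kinetochore, rose by 0.48 ± 0.07 (limma adjusted p = 4.98e-05; higher in 12 of 12 pairs). Bub1 stood at 4.13, 3.48 and 3.15 in the BZP arrays, against 3.06, 2.89 and 2.79 in their DMSO arrays, and at 3.72, 2.79 and 3.10 in the TFMPP arrays, against 3.03, 2.71 and 2.79 in their DMSO arrays. Bub1 stood at 3.87, 3.52 and 3.19 in the MeOPP arrays, against 3.21, 3.08 and 2.73 in their DMSO arrays, and at 3.48, 3.54 and 3.56 in the MDBP arrays, against 3.28, 3.03 and 3.16 in their DMSO arrays. The second TFMPP pair had the smallest gap. All BZP and MDBP arrays lay above their own DMSO arrays, while those of TFMPP and MeOPP overlapped. The share of all genes that separate so by drug was not counted. Bub1b, the pseudokinase BubR1 and partner of Bub1, lay at 0.02 ± 0.05 and was not called, yet its MeOPP arrays separated too.

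Aurka, the kinase of spindle poles, rose by 0.50 ± 0.08 (limma adjusted p = 0.000224). Aurka stood at 5.40, 4.56 and 5.05 in the BZP arrays, against 4.67, 3.39 and 4.81 in their DMSO arrays, and at 4.78, 4.30 and 4.98 in the TFMPP arrays, against 4.69, 3.74 and 4.82 in their DMSO arrays. Aurka stood at 5.32, 4.56 and 5.09 in the MeOPP arrays, against 4.72, 3.77 and 5.10 in their DMSO arrays, and at 5.03, 4.63 and 5.25 in the MDBP arrays, against 4.51, 4.11 and 4.62 in their DMSO arrays. Its arrays differed more between pairs than between treated and DMSO arrays of a pair, and the call was lost without the pair terms (adjusted p = 0.147). Aurkb, the kinase of the chromosomal passenger complex, lay at 0.16 ± 0.06 and was not called (adjusted p = 0.0595). The kinase Plk1 lay at -0.06 ± 0.05, the anaphase activator Cdc20 at 0.10 ± 0.05 and the ubiquitin conjugase Ube2c at 0.03 ± 0.05.

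Ccnb1, the cyclin that takes Cdk1 into mitosis, rose by 0.25 ± 0.06 (limma adjusted p = 0.00583; higher in 9 of 12 pairs). Ccnb1 stood at 4.12, 3.63 and 3.86 in the BZP arrays, against 3.61, 3.73 and 3.57 in their DMSO arrays, and at 4.00, 3.66 and 3.45 in the TFMPP arrays, against 3.79, 3.42 and 3.52 in their DMSO arrays. Ccnb1 stood at 4.37, 3.67 and 3.79 in the MeOPP arrays, against 3.66, 3.19 and 3.46 in their DMSO arrays, and at 3.62, 3.55 and 3.94 in the MDBP arrays, against 3.50, 3.61 and 3.65 in their DMSO arrays. The largest gaps were those of the first BZP and MeOPP pairs, and the second BZP, the third TFMPP and the second MDBP pairs ran the other way. The call was lost with 1 value per preparation (adjusted p = 0.106), while its other probe set was also called higher, at 0.31 ± 0.05. Its relatives were not called: Ccnb2 lay at 0.09 ± 0.06, Ccna2 at 0.06 ± 0.05 and the kinase Cdk1 itself at 0.10 ± 0.06. They were higher in 8, 8 and 11 of 12 pairs in that order. Ccna2 and Cdk1 were dim, at 1.66 to 2.14 and 2.88 to 3.44 in DMSO arrays, where the median probe set of an array lay at 4.49. At such levels a small change need not mean that the transcript held still.

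Kif20a, a kinesin of cytokinesis, passed the threshold narrowly, at 0.14 ± 0.05 (limma adjusted p = 0.0479), and lost the call when any one of 10 of the 12 pairs was left out, all but the first TFMPP and the third MDBP pairs. Kif20a stood at 2.96, 3.02 and 3.43 in the BZP arrays, against 2.80, 2.89 and 3.27 in their DMSO arrays, and at 3.17, 2.84 and 3.01 in the TFMPP arrays, against 3.31, 2.78 and 2.78 in their DMSO arrays. Kif20a stood at 3.26, 2.97 and 2.97 in the MeOPP arrays, against 3.05, 2.92 and 2.86 in their DMSO arrays, and at 3.39, 2.92 and 3.15 in the MDBP arrays, against 2.95, 2.64 and 3.11 in their DMSO arrays. The treated and DMSO arrays of Kif20a overlapped over most of their range. The other 6 genes of chromosomes and the spindle were not called. They were the topoisomerase Top2a at -0.03 ± 0.06, the proliferation antigen Mki67 at 0.05 ± 0.05, the passenger protein Birc5 at 0.09 ± 0.06, the kinesin Kif11 at -0.08 ± 0.06, the kinetochore protein Cenpf at -0.02 ± 0.05 and the spindle protein Nusap1 at -0.10 ± 0.06. Mki67 and Top2a are the usual marks of dividing cells, and the 95 percent intervals of their changes were -0.06 to 0.16 and -0.16 to 0.09. Both were dim: in DMSO arrays Mki67 ran from 2.06 to 2.39 and Top2a from 2.55 to 3.29. The lowest value of any probe set was 1.43, and the median probe set of an array lay at 4.49. At such levels a narrow interval need not mean that the transcript held still.

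The classes also differed in the brightness of their probe sets. The median probe set of an array lay at 4.49, and 4 of 26 licensing and S phase members but 13 of 19 G2 and mitosis members had a mean below it. The deposited values carry no detection calls, and brightness depends on the probe as well as on the transcript, so levels are not compared between genes. Among genes with a mean of at least 5, 27.1 percent of all genes rose, as did 11 of 19 licensing and S phase members and 1 of 2 G2 and mitosis members. Among genes with a mean under 5, 3.96 percent of all genes rose, as did 2 of 7 licensing and S phase members (Cdt1 and Tyms) and 4 of 17 G2 and mitosis members (Aurka, Bub1, Ccnb1 and Kif20a). The part of brightness in the difference between the classes was not tested.

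**Figure D3:**
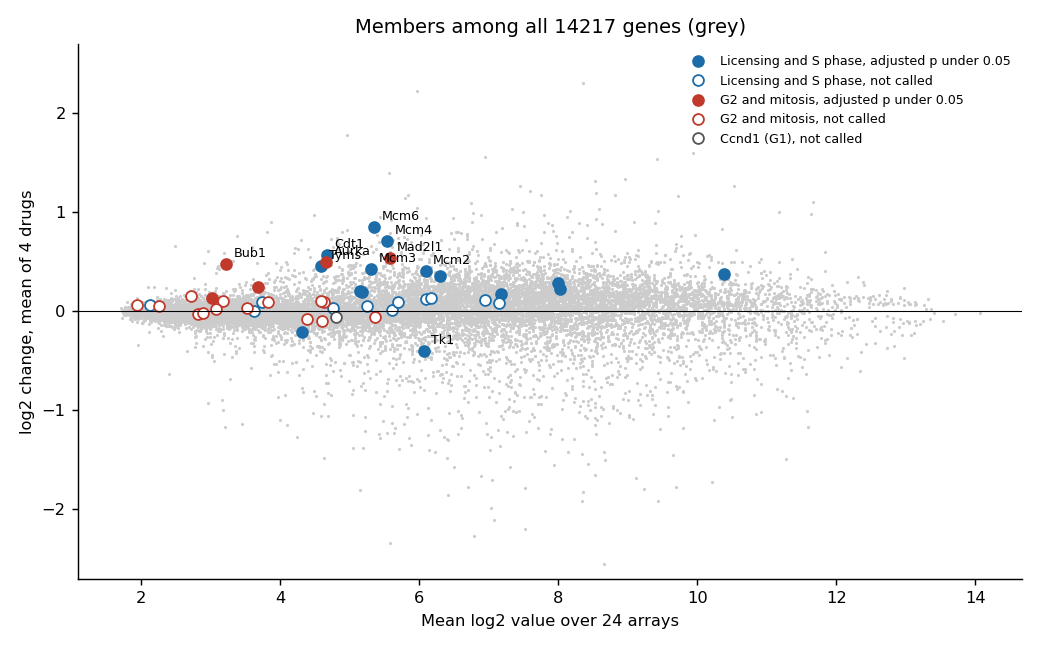
Mean log2 value over 24 arrays (horizontal) against log2 change in the mean of the 4 drugs (vertical) for 14217 genes in grey and the 46 members in colour, filled where the limma adjusted p was under 0.05. Most G2 and mitosis members (red) lie at the dim end, where few genes of any kind were called.

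The 12 pairs gave the classes as follows. The median change of the licensing and S phase members was above 0 in 12 of 12 pairs, from 0.06 to 0.32, and that of the G2 and mitosis members also in 12 of 12, from 0.01 to 0.22. The median over Mcm2 to Mcm7 ran from 0.14 to 0.62. The licensing and S phase median was the higher of the class medians in 10 of 12 pairs. The difference between the class medians was -0.16 in the first TFMPP pair and -0.04 in the second MDBP pair, and it was widest in the third MDBP pair, at 0.31.

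**Figure D4:**
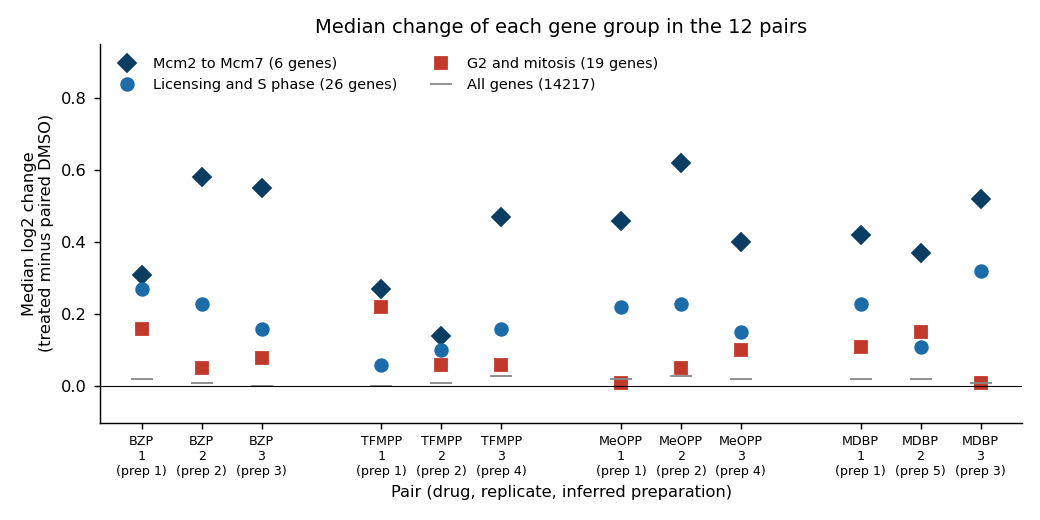
Median log2 change, treated minus paired DMSO, in each of the 12 pairs (grouped by drug, with the inferred preparation in brackets) for Mcm2 to Mcm7, the 26 licensing and S phase members, the 19 G2 and mitosis members and all 14217 genes. All-gene medians stay between 0.00 and 0.03 in size, the helicase ring lies highest in every pair, and the order of the class medians turns in the first TFMPP and second MDBP pairs.

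By drug, the counts of members that rose were 9 for BZP, 9 for MDBP, 8 for MeOPP and 1 for TFMPP, and limma called 0 lower under any drug. At an unadjusted limma p under 0.05, members lower numbered 1 with BZP, 3 with MDBP, 1 with MeOPP and 0 with TFMPP, and members higher 18, 17, 14 and 10 in that order. Of all genes, 16.5, 14.3, 12.6 and 7.74 percent were higher and 11.8, 10.9, 9.71 and 7.05 percent lower by this unadjusted p in the same order of drugs. By the adjusted p, 6.66 percent of all genes rose and 5.96 percent fell with BZP, and 0.872 percent rose and 1.71 percent fell with TFMPP. With MeOPP 3.45 percent of all genes rose and 4.52 percent fell, and with MDBP 4.68 percent rose and 5.05 percent fell. The licensing and S phase members held 6, 8, 6 and 1 of the members' rises by the adjusted p with BZP, MDBP, MeOPP and TFMPP, with medians of 0.23, 0.17, 0.16 and 0.11. The G2 and mitosis members held 3, 1, 2 and 0, with medians of 0.08, 0.11, 0.06 and 0.09. With 3 pairs a drug the counts moved with single pairs. The shares of all genes by drug in these reduced fits are not given. Without the third MDBP pair 1 member rose under MDBP, and without the first or the second MDBP pair 4 did. Without the first or the second MeOPP pair 3 members rose under MeOPP. The TFMPP count was 0 without the second TFMPP pair and 2 without the third BZP, the first MeOPP or the second MeOPP pair. Without the pair terms the counts were 1, 0, 0 and 0.

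Mcm6 was the only member called with all 4 drugs, at 1.25 ± 0.12 with BZP, 0.85 ± 0.12 with MeOPP, 0.74 ± 0.12 with TFMPP and 0.56 ± 0.12 with MDBP (SE, n = 3 pairs each; limma adjusted p from 7.89e-06 to 0.00746). Mcm2 and Mcm4 were called with BZP, MeOPP and MDBP. Called with 2 drugs were Pcna with MeOPP and MDBP, Rfc3, Tyms and Aurka with BZP and MDBP, and Bub1 with BZP and MeOPP. Another 7 members were called with 1 drug: Cdt1 and Mad2l1 with BZP, Mcm3, Pold1 and Ccnb1 with MeOPP, and Mcm7 and Prim1 with MDBP. The other 31 were called with none.

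These lists differ between drugs, but none of the differences between drugs was itself called. In the 6 differences 0 of 46 members passed (limma adjusted p under 0.05), with 1 to 5 members at an unadjusted p under 0.05 in each. The share of all genes at that unadjusted p was not counted for the differences, so these small counts have no background beside them. Over all genes only BZP minus TFMPP called any, 13 genes or 0.0914 percent. The change of Mcm6 differed by 0.69 ± 0.16 for BZP minus MDBP (95 percent interval 0.34 to 1.04; limma adjusted p = 1.00), by 0.50 ± 0.16 for BZP minus TFMPP (0.16 to 0.85; adjusted p = 0.610) and by 0.40 ± 0.16 for BZP minus MeOPP (0.05 to 0.74; adjusted p = 0.693). Ccnd1 differed by 0.73 ± 0.19 for MeOPP minus MDBP (0.34 to 1.12; adjusted p = 0.963), by -0.66 ± 0.19 for BZP minus MeOPP (-1.05 to -0.26; adjusted p = 0.577) and by -0.60 ± 0.19 for TFMPP minus MeOPP (-0.99 to -0.20; adjusted p = 0.768). Mcm6 or Ccnd1 had the lowest unadjusted limma p of the 46 members in every difference but TFMPP minus MDBP. Intervals of members picked by a low p tend to exclude 0, so those given here are no test. The intervals are not adjusted for the number of genes, they leave room for sizeable differences, and the 4 drugs were used at different doses.

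In DMSO arrays the members differed between inferred preparations, which are 5 clusters of DMSO arrays that the labels do not name. Preparation 1 held the first pair of each drug, preparation 2 the second BZP, TFMPP and MeOPP pairs, preparation 3 the third BZP and MDBP pairs, preparation 4 the third TFMPP and MeOPP pairs, and preparation 5 the second MDBP pair. Ccne2 spanned most, with preparation means of 5.93, 6.23, 4.48, 5.34 and 5.67 in preparations 1 to 5, a range of 1.75. Tk1 spanned 1.42, Aurka 1.32, Cdt1 1.23, Fen1 1.20 and Pcna 1.04. At the other end, Cenpf spanned 0.14, Cdc45 0.16 and Mcm3 0.18.

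Preparation 3 had the lowest DMSO means of Ccne2, Pcna (9.44), Mcm7 (7.41) and Ccnb2 (4.04), and the highest of Tk1 (7.28), Pole (4.26) and Pold1 (5.53). Preparation 2 had the lowest DMSO means of Aurka (3.64) and Mcm2 (5.53). For several members the change was largest where the DMSO mean stood apart. Tk1 changed by -1.02 in preparation 3, against -0.11 in preparation 1, and Mcm4 by 1.22 in preparation 3, against 0.54 in preparation 1. Aurka changed by 0.84 in preparation 2 and by 0.07 in preparation 4. A change shares its DMSO array with the DMSO level, so this pattern is a description with no test. The median over Mcm2 to Mcm7 was 0.39, 0.43, 0.48, 0.39 and 0.37 in preparations 1 to 5, beside 0.24, 0.20, 0.31, 0.14 and 0.11 for the licensing and S phase members and 0.08, 0.06, -0.01, 0.08 and 0.15 for the G2 and mitosis members.

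**Figure D5:**
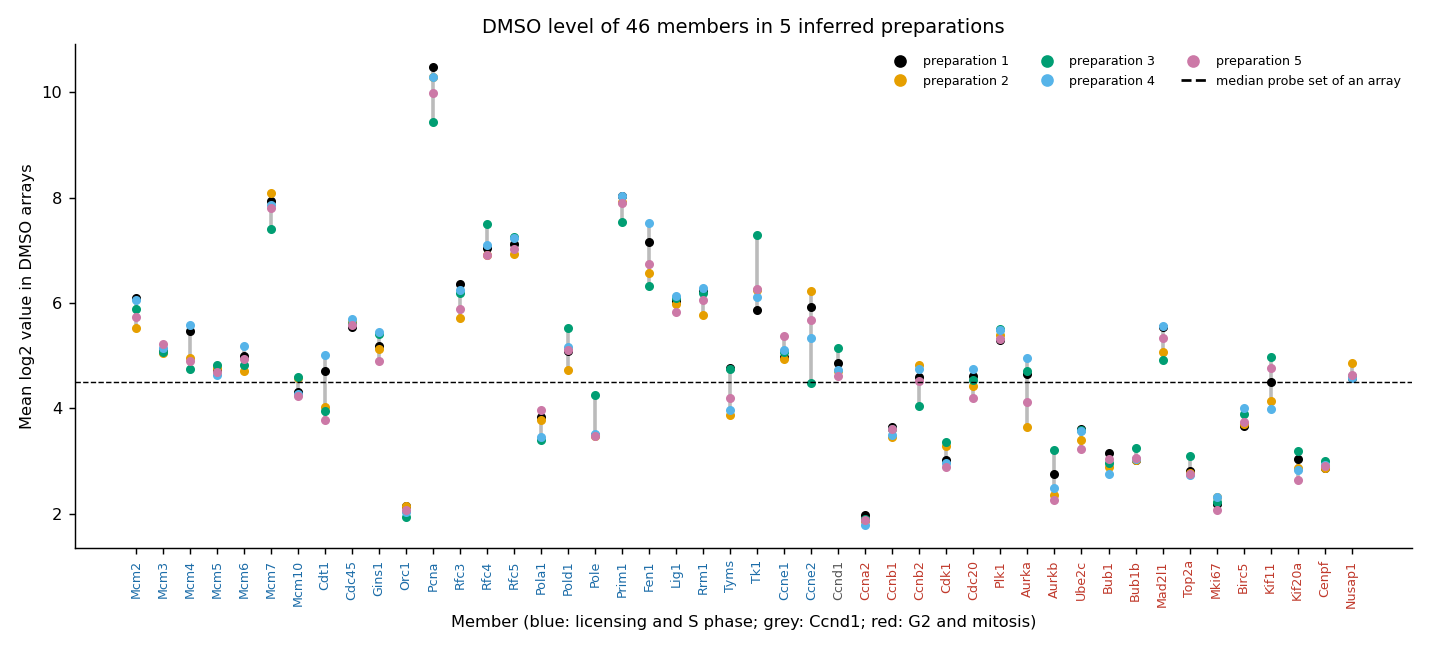
Mean log2 value in the DMSO arrays of each inferred preparation (colour) for the 46 members, with a grey bar over their range and the median probe set of an array, 4.49, as a dashed line. Ccne2 and Tk1 have the longest bars, and most G2 and mitosis members (red names) lie below the dashed line.

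Genes of the same pathways outside the member list were read in 5 further lists. In the mean of the drugs 18.0 percent of all genes rose and 11.9 percent fell. Of 37 measured other replication genes 19 rose and 2 fell in the mean of the drugs, with a median of 0.16, close to that of the licensing and S phase members. Topbp1, a scaffold of helicase activation, rose by 0.49 ± 0.05, the GINS subunit Gins4 by 0.48 ± 0.05, and Rmi1, of the complex that dissolves joined DNA strands, by 0.47 ± 0.05. Pold4, the small subunit of polymerase delta, changed by -0.36 ± 0.05 and Timeless, of the fork protection complex, by -0.29 ± 0.05. Of 42 other mitosis genes 12 rose and 2 fell, with a median of 0.07. Cks2, a Cdk-binding protein, rose by 0.55 ± 0.07, the condensin subunit Smc2 by 0.47 ± 0.09 and the Cdk1-inhibiting kinase Wee1 by 0.46 ± 0.07. Cks1b, the relative of Cks2, changed by -0.33 ± 0.05.

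Melk, a kinase of dividing cells, fell most in these lists and was lower in 12 of 12 pairs. It ran from 4.28 to 6.55 in treated arrays (median 5.03), against 5.35 to 8.11 in DMSO arrays (median 6.09), with a change of -1.28 ± 0.15 (2.43-fold lower; limma adjusted p = 1.43e-05). By preparation 1 to 5 its change was -0.84, -1.79, -2.17, -0.28 and -1.73.

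Of 20 measured regulators of cell cycle genes 11 rose and 1 fell, with a median of 0.14. The pocket proteins, which hold E2F factors in check, did not move as one: Rbl1 (p107) rose by 0.60 ± 0.07, Rb1 by 0.17 ± 0.05 (limma adjusted p = 0.0190), and Rbl2 (p130), the form known from quiescent cells, changed by -0.72 ± 0.06 (adjusted p = 1.13e-07). Rbl2 ran from 6.46 to 7.64 in treated arrays, against 6.98 to 8.32 in DMSO arrays, and was lower in 12 of 12 pairs. Mybl1 rose by 0.61 ± 0.08 and Lin9, of the MuvB core, by 0.48 ± 0.06. E2f2, an activator, rose by 0.20 ± 0.06 (limma adjusted p = 0.0244; higher in 10 of 12 pairs), and E2f5, an E2F of the repressor kind, by 0.44 ± 0.07 (adjusted p = 0.000367; higher in 12 of 12 pairs), both named after their values were seen. The activators E2f1 (-0.13 ± 0.08, adjusted p = 0.277), Mybl2 (0.09 ± 0.07, adjusted p = 0.389) and Foxm1 (0.12 ± 0.06, adjusted p = 0.163) were not called.

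Of 13 cyclin-dependent kinases, further cyclins and their inhibitors 4 rose and 1 fell, with a median of 0.09. Of all genes 18.0 percent rose and 11.9 percent fell. Cdkn3, a phosphatase that acts on Cdk proteins, rose by 0.80 ± 0.07 (limma adjusted p = 6.07e-07), with all treated arrays (4.92 to 5.67) above all DMSO arrays (4.06 to 4.81). Cdkn2d, an inhibitor of Cdk4 and Cdk6, rose by 0.30 ± 0.05, Cdk4 by 0.26 ± 0.06 and the inhibitor Cdkn1a (p21) by 0.21 ± 0.05 (adjusted p = 0.00506), while Cdkn2c changed by -0.26 ± 0.06. Of 12 genes of the replication checkpoint and fork repair 2 rose, near the share of all genes, and 0 fell, with a median of 0.03. The risers were the helicase Blm, by 0.50 ± 0.06, and the nuclease Mre11, by 0.28 ± 0.05.

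Markers of cell types moved in some of the same arrays. Their counts are for the mean of the 4 drugs, where 18.0 percent of all genes rose and 11.9 percent fell. Hepatocyte markers were bright on all arrays, with albumin (Alb) at 14.04 to 14.07 in treated arrays, against 14.06 to 14.10 in DMSO arrays, and 1 of 9 rose and 4 fell. The summed linear level of the hepatocyte markers ran from 60435 to 77609 in treated arrays, against 67605 to 79028 in DMSO arrays, and was lower in 11 of 12 pairs. Of 12 markers of Kupffer cells and leukocytes 1 rose (Cd68) and 7 fell, with a summed level of 1492 to 2973 in treated arrays, against 1682 to 3998 in DMSO arrays, lower in 11 of 12 pairs. Stellate and fibroblast markers (14 measured, 1 higher, 2 lower) summed to 506 to 1247 in treated arrays, against 496 to 1167 in DMSO arrays. Markers of sinusoidal endothelium (10 measured, 0 higher, 1 lower) summed to 319 to 1969 in treated arrays, against 351 to 2319 in DMSO arrays. Cholangiocyte markers (8 measured, 0 higher, 0 lower) summed to 301 to 539 in treated arrays, against 308 to 540 in DMSO arrays. RMA gives no value of 0, so none can be called absent. As a measure of RNA quality, the 3′ minus 5′ difference of control probe sets in treated minus DMSO arrays of a pair ran from -0.15 to 0.14 for GAPDH and from -0.24 to 0.62 for beta-actin. The part of other cell types and of RNA quality in the members' changes was not tested.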

How the data were processed

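Expression was read from 24 Affymetrix arrays, 1 per sample, labelled from 100 ng of total RNA. The deposited table gives log2 values that the authors made with RMA, per the submitters' processing notes, in a version not given in the sources used here. RMA corrects the background, makes the distributions of all arrays equal and summarises probe sets, so a change is relative to the rest of the array. Array medians lay between 4.45 and 4.52. Arrays have no read depth, and their number limits the precision.

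Of 31099 probe sets, 57 controls were left out. The platform annotation names 1 gene for 20826 of the rest, several for 436 and none for 9780. A single model in limma 3.58.1 (R 4.3.3) held 12 pair terms and 4 drug terms, with 8 residual and 7.66 prior degrees of freedom. Adjusted p-values (Benjamini-Hochberg) run over 31042 probe sets. Figures used matplotlib 3.10.9 under Python 3.11.15. The fit was tested on simulated data.

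Control titles name the treated sample each belongs to. In the data, the departures of both arrays of a pair from the means of their groups gave correlations of 0.612 to 0.802 in 12 of 12 pairs. DMSO arrays correlated at 0.9943 to 0.9971 within inferred preparations and at 0.9622 to 0.9919 between them. The number of clusters was chosen on these same arrays to make the gap between those ranges widest. The gap is thus no test of the preparations.

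The members, lists and tests were chosen with earlier results of these data known. All members could be named. Values in every array are given for the 6 called members of each class with the largest changes (5 in G2 and mitosis, where no more were called) and for Ccnd1. Those of Tk1 and Pcna were added after their values were seen. Up to 3 rises and 3 falls were named per pathway list, with E2f1, Foxm1, Mybl2, Rb1 and Cdkn1a. Alternatives changed the pair terms, the control arrays, normalization, the filter on low values, probe sets, the variance prior, array weights, preparations and each pair in turn. Leaving out preparation 3 was added after the data were seen.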

Additional observations from a re-analysis of the deposited data

How the results depend on the processing

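Most of the calls in the mean were lost without the pair terms. With no replicate block, that is without the pair terms, members higher in the mean numbered 7 and members lower 0, with the 12 DMSO arrays as 1 control group also 7 and 0, and over all genes 705 rose and 513 fell, against 2555 and 1693 with the block. Both settings shared 7 of the 20 calls; the calls of Aurka, Ccnb1, Ccne1, Cdt1, Kif20a, Mcm10, Pcna, Pold1, Prim1, Rfc3, Rfc4, Tk1 and Tyms were lost. Members higher by drug without the pair terms numbered 1 for BZP and 0 for MDBP, MeOPP and TFMPP, and with 1 control group 1 for BZP, 2 for MeOPP and 0 for MDBP and TFMPP. Members higher with TFMPP numbered 3 from its own arrays alone, 2 with probe sets averaged, 5 with array weights and 2 without preparation 3. For single drugs the shares of all genes in these settings are not given, so these counts have no background beside them. Without preparation 3, members higher with MDBP numbered 1, and 19 of the 20 calls in the mean were kept, all but Ccne1. In that setting 15.0 percent of all genes rose in the mean, against 18.0 percent in the main fit. With 1 value per preparation 14 of 20 calls were kept, with 1 member lower, and 10.8 percent of all genes rose. The calls of Ccnb1, Ccne1, Kif20a, Mcm10, Pold1 and Rfc4 were lost. Among genes with a mean of at least 5, 1 member was lower in the mean, 1 was lower with MDBP, and the G2 and mitosis median was 0.2403 over only 2 members. With a trended robust prior and with array weights 1 member was lower with MDBP. Leaving out each pair in turn, members higher in the mean ranged from 16 to 19 and lower from 1 to 2. Over all genes, 15.2 to 17.6 percent rose in the mean in these fits. Members higher with BZP ranged from 7 to 9, TFMPP 0 to 2, MeOPP 3 to 9 and MDBP 1 to 11. Members lower with BZP and with MDBP ranged from 0 to 1. The licensing and S phase median ranged from 0.1466 to 0.1787 and the G2 and mitosis median from 0.0541 to 0.0920. Of the values of single members under the alternatives, 1918 kept their direction and side of the threshold, 62 passed it newly and 185 fell below it. No called value changed sign. The causes of the differences between settings were not tested. Of the G2 and mitosis members, 13 of 19 had a mean below the median probe set of an array; the part of brightness in their calls was not tested.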
